A study of Mus musculus with 16 samples.

Results

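The comparison described here is the difference between the responses of Swhtr null and WT heart slices to treatment, which asks whether loss of the lncRNA Swhtr alters how heart tissue answers a period of low oxygen. Treated slices were kept for 7 days at 3% O2 and then for 7 days at 21% O2, and untreated slices stayed at 21% O2 throughout. The 4 groups of 4 libraries each were null treated, null untreated, WT treated and WT untreated. For each gene, the response in a genotype is the log2 fold change of treated over untreated slices, and the difference is the null response minus the WT response. All 16 libraries entered, and 24971 of the 55487 genes in the table had the total of at least 10 counts that the comparison required. At the lower edge of this rule 402 genes had a total of exactly 10 counts, and 420 genes with a total of 9 counts fell just outside it.

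The slices came from male mice aged 8 weeks of the C57Bl6/J strain. Null mice carried a transcriptional stop signal (3xpA) on both Swhtr alleles, in a line that was made in hybrid 129S6/C57BL6 embryonic stem cells, backcrossed and then bred as homozygotes, so that WT slices did not come from littermates. There were 4 mice per genotype, from 2 litters. The mouse behind each library is not stated, and with 8 libraries per genotype some must come from the same mouse, whereas all p-values treat libraries as independent. Library totals ranged between 17830351 and 29941903 counts. The stop signal itself could not be checked, because 0 features of the table overlap the Swhtr unit.

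Swhtr is transcribed next to Nkx2-5, which encodes a homeobox factor of heart muscle, and the oxygen protocol imitates ischemia followed by recovery. Low oxygen stabilizes the HIF transcription factors, which switch on glycolysis and glucose uptake, and the return to normal oxygen lets them be degraded again. Cultured slices of adult heart hold fibroblasts, macrophages, endothelial cells and mural cells beside heart muscle. The labelled tissue was checked against its markers, and heart muscle transcripts were scarce. Myh6, the adult myosin heavy chain, had 0.716 to 21.0 CPM (counts scaled by library size) in null treated, 0.0513 to 0.141 CPM in null untreated, 0.292 to 10.1 CPM in WT treated and 0.158 to 0.654 CPM in WT untreated slices. Pln, the regulator of the sarcoplasmic calcium pump, was at 0 in at least 1 library of 3 of the 4 groups. Col1a1, a fibroblast collagen, had 6272 to 8882 CPM over all 16 libraries, and Lyz2, a macrophage lysozyme, had 3219 to 8798 CPM.

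Library 2 of each null group stood apart, with limma quality weights of 0.288 in null treated and 0.537 in null untreated slices (a lower weight means a library further from its group). Where leaving out a library moved a median or a difference given here by over 1.5 times, the value without it is given as well.

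In the fit without replicate blocks, no gene passed the test of the difference. The lowest adjusted p over the 24971 genes was 0.715 (edgeR quasi-likelihood test, Benjamini-Hochberg), so 0 genes (0.0%) were called at an adjusted p under 0.05, with or without a threshold of 0.58 on the log2 difference. At an unadjusted p under 0.05 there were 1721 genes (6.89%), of which 815 (3.26%) had a higher response and 906 (3.63%) a lower one in null slices. DESeq2 and limma also called 0 genes, with 1620 and 1854 genes at an unadjusted p under 0.05. Side by side, 155 genes (0.621%) were called in the null response and 0 genes (0.0%) in the WT response. Without both null libraries numbered 2, 0 genes were called for the difference. By contrast, a fit with blocks of libraries of the same genotype and replicate number called 52 genes for the difference. Of these, 26 had an unadjusted p under 0.05 without the blocks. Blocks by replicate number alone called 0 genes. What a replicate number marks is not stated, and the numbers were not taken to pair the libraries. The absence of calls thus depends on leaving out the blocks of genotype and number. The counts of the null and WT responses use the same libraries as the difference and do not show that the responses differ.

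The size of difference that the 16 libraries could bound depended on the level of the gene. Among the 12714 genes with a mean of at least 50 counts, the median standard error was 0.15 on the log2 scale, and the 95% interval lay within -1 to 1 for 11152 genes (87.7%). It lay within -0.58 to 0.58 for 8024 of them (63.1%). Among the 4652 genes with a mean of at least 1000 counts the interval lay within -1 to 1 for 93.8%, and among the 3230 genes with a mean of 10 to 50 counts for 9.10%. An estimated log2 difference over 1 in size was found for 102 genes with a mean of at least 50 counts.

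**Figure D1:**
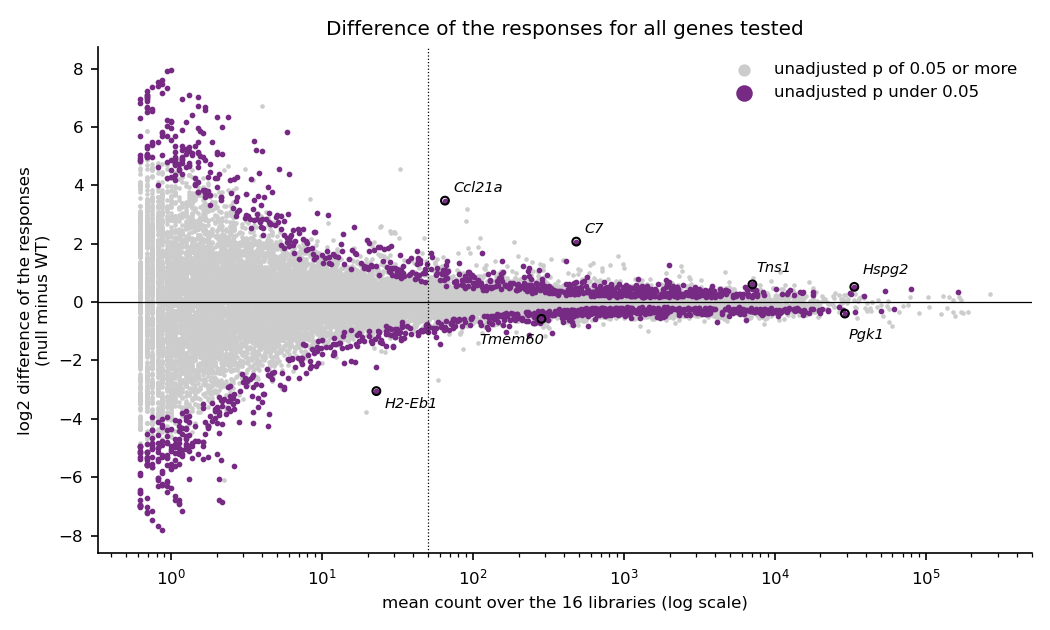
Log2 difference of the responses (null minus WT, vertical axis) against the mean count over the 16 libraries (log scale) for the 24971 genes tested. Purple dots are the 1721 genes at an unadjusted p under 0.05, the dotted line marks a mean of 50 counts, and the scatter narrows with the level.

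The genes with the smallest p-values are given as estimates, since none passed the adjustment in the fit without replicate blocks. In that fit the adjusted p was 0.715 for every gene at an unadjusted p under 0.05 (edgeR). Of the 10 genes with a higher response in null slices and the smallest p-values, Dmd and Dtna belong to the dystrophin complex and Tns1 and Sorbs3 to integrin adhesions. Sh3bp5 (chr14:31359880-31436078, GRCm38), which encodes a mitochondrial docking protein of the JNK kinase, had 106, 114, 92.8 and 109 CPM in null treated and 82.0, 78.1, 76.8 and 76.8 CPM in null untreated slices. WT treated slices had 85.7, 101, 86.3 and 94.4 CPM, and WT untreated slices 97.4, 89.4, 85.8 and 92.3 CPM. The null groups did not overlap and the WT groups did. Genes named here were picked by the difference, and the share of all genes with groups apart was not counted. The difference for Sh3bp5 was 0.42 ± 0.10 (SE), with a 95% interval of 0.21 to 0.62.

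Tns1 (chr1:73910231-74124449) encodes tensin 1, which ties actin to integrins. It had 405, 417, 340 and 356 CPM in null treated and 281, 286, 258 and 194 CPM in null untreated slices, against 291, 303, 321 and 325 CPM in WT treated and 345, 353, 297 and 272 CPM in WT untreated slices. Again only the null groups were apart, and the difference was 0.61 ± 0.15 (SE), with an interval of 0.28 to 0.93. Akap12 (chr10:4266380-4359470), a scaffold for protein kinase A, averaged 223 CPM in null treated, 163 CPM in null untreated, 191 CPM in WT treated and 190 CPM in WT untreated slices, with a difference of 0.44. Dmd (chrX:82948870-85206141), which encodes the membrane-anchoring protein dystrophin, had a difference of 0.79, composed of a null response of 0.59 and a WT response of -0.21. It averaged 11.6 CPM in null treated, 7.70 CPM in null untreated, 11.0 CPM in WT treated and 12.7 CPM in WT untreated slices. The gap of null over WT for Dmd was thus 0.07 in treated and -0.72 in untreated slices. Tacc2, a centrosomal coiled-coil gene, had 0.46, and Sorbs3, which encodes the adhesion adaptor vinexin, had 0.47. Dtna, whose product alpha-dystrobrevin belongs to the complex around dystrophin, had 1.68 at 3.20 CPM in null treated, 1.29 CPM in null untreated, 2.07 CPM in WT treated and 2.67 CPM in WT untreated slices. Pcdhga2 (1.40) and Pcdhga6 (1.04), of the gamma protocadherins, were also among the 10, but these genes share their last exons, so that reads may be split between them. The remaining gene was Cyyr1, which encodes a cysteine and tyrosine-rich protein (0.64).

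Among genes with a mean of at least 50 counts and an unadjusted p under 0.05, Ccl21a, C7, Abat, Dtna, Gap43 and Olfml2a had the estimates furthest above 0. Estimates as large with a higher p are not listed. C7 (chr15:4988762-5063740), a terminal complement component, had 54.6, 40.0, 18.6 and 34.3 CPM in null treated and 6.496, 12.3, 5.64 and 2.41 CPM in null untreated slices. WT treated slices had 25.9, 25.5, 20.5 and 19.8 CPM, and WT untreated slices 26.2, 22.3, 12.8 and 8.77 CPM. The null untreated libraries were the low ones, and the WT groups overlapped. Its difference was 2.07 ± 0.64 (SE), with an interval of 0.68 to 3.46. Olfml2a, an extracellular olfactomedin-domain gene, had a difference of 1.41, and Abat, the GABA transaminase, had 1.68. Gap43, a growth-associated protein of nerve cells and glia, had 1.55. Ccl21a, a chemokine of lymphatic vessels, had the estimate furthest from 0, 3.48 with an interval of 0.01 to 6.94, and without 1 library at a time it lay between 1.92 and 6.06. It sits on an unplaced scaffold among near-identical copies, so its counts are uncertain.

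**Figure D2:**
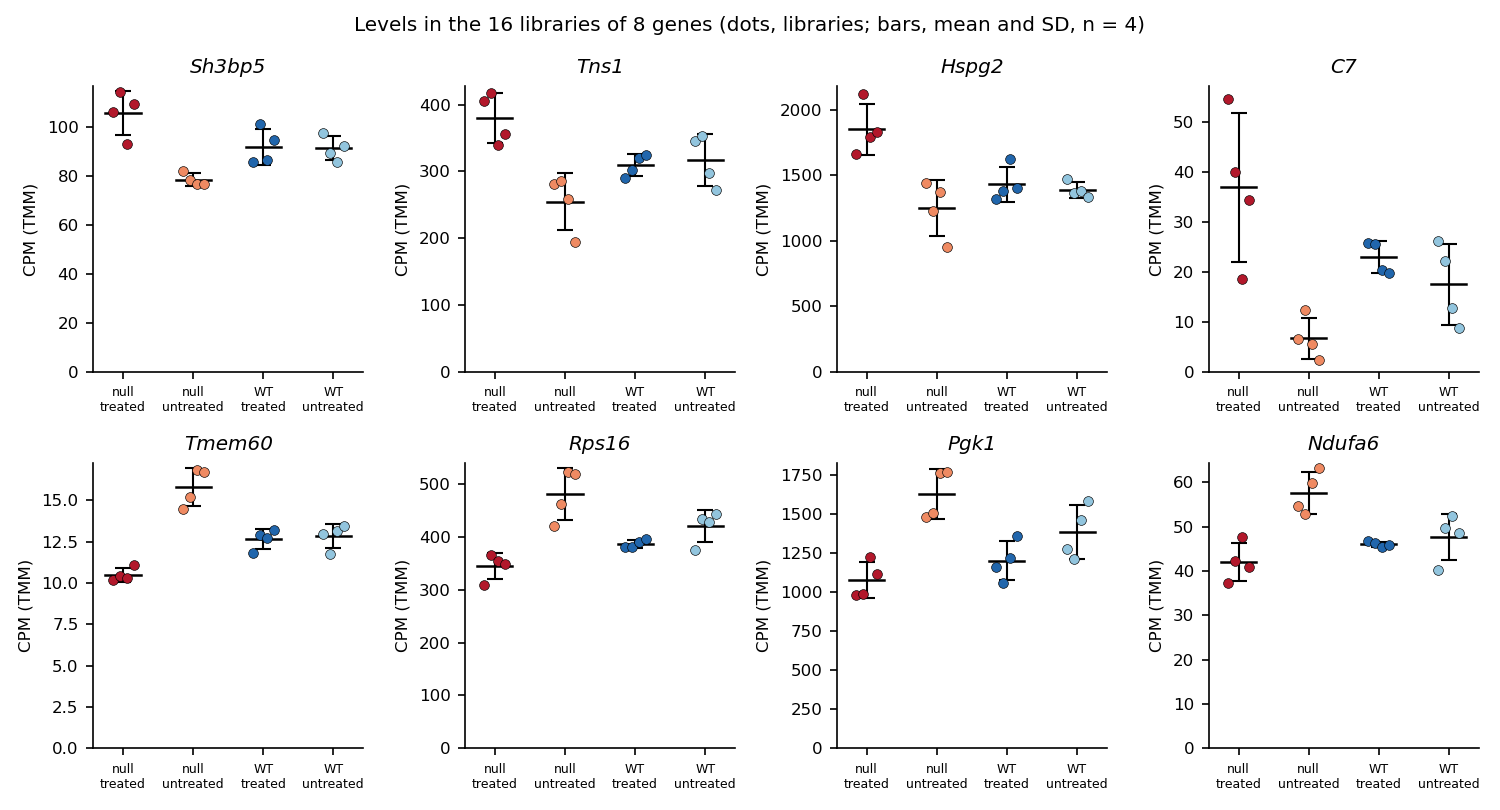
CPM in each of the 16 libraries (vertical axis, from 0) for 8 genes, with each group's mean and SD (n = 4). In the upper row, with positive differences, null treated slices are above null untreated ones, and in the lower row, with negative differences, they are below, while the WT groups overlap in all 8 genes. The 8 were picked by the difference, and the share of all genes with this pattern was not counted. Lyve1 and Ctsk, not shown, had the reverse pattern.

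The 10 genes with a lower response in null slices and the smallest p-values included Rpl36 of the ribosome, Tpi1 of glycolysis and Cox7a2l and Atp5k of the respiratory machinery. Tmem60 (chr5:20882191-20886870), which encodes a small membrane protein, had the smallest p of all genes tested. It had 10.2, 10.4, 10.3 and 11.1 CPM in null treated and 14.5, 15.2, 16.8 and 16.7 CPM in null untreated slices, against 11.8, 12.9, 12.7 and 13.2 CPM in WT treated and 13.0, 11.8, 13.2 and 13.4 CPM in WT untreated slices. Its difference was -0.57 ± 0.13 (SE), with an interval of -0.83 to -0.31. Tpi1 (chr6:124810586-124814296), the triosephosphate isomerase of glycolysis, had 574, 565, 662 and 619 CPM in null treated and 786, 816, 847 and 898 CPM in null untreated slices. In WT it had 698, 646, 685 and 770 CPM in treated and 743, 712, 768 and 805 CPM in untreated slices, and the difference was -0.35. In both genes the null groups were apart and the WT groups overlapped.

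Other genes of this direction were Hist1h1c, a linker histone (-0.43), Mtln, which encodes the mitochondrial micropeptide mitoregulin (-0.62), Cox7a2l, a factor for joining respiratory complexes (-0.36), Atp5k, a subunit of the ATP synthase (-0.46), Dpm3, a subunit of the mannosyl donor synthase (-0.46), and Rabgef1, an activator of the endosomal GTPase Rab5 (-0.37). Among genes with at least 50 counts on average and an unadjusted p under 0.05, predicted genes set aside, the estimates furthest below 0 were those of Napsa, an aspartic protease (-1.42), Cdkn1c, a cell cycle inhibitor (-1.12), Cytip, an adaptor of leukocytes (-1.05), and Ighm, the heavy chain of IgM (-1.02). Cdkn1c had 7.01, 2.10, 8.59 and 12.3 CPM in null treated slices, so that its library 2 alone was far below the others. The difference for Cdkn1c lay between -1.47 and -0.81 when 1 library at a time was left out. The interval of Cdkn1c ran from -2.20 to -0.05 and that of Cytip from -2.07 to -0.04.

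The estimates at an unadjusted p under 0.05 were made mainly of the null response. Among the 505 higher genes (3.97% of 12714) with at least 50 counts on average, the median difference was 0.38, with a median null response of 0.34 and a median WT response of -0.03. Among the 562 lower ones (4.42%), the medians were -0.32, -0.32 and 0.03. The null response was the larger of the pair in 90.9% of the higher and 87.9% of the lower genes, against 69.8% of all 12714 genes. These genes were picked by the difference, so the medians describe them and test nothing. In the higher genes the median gap of null over WT was 0.19 in treated and -0.18 in untreated slices. In the lower genes it was -0.17 and 0.16. The difference is the treated gap minus the untreated gap, so picking genes by it favors gaps of opposite sign.

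Ribosomal protein genes were the list with the most members at an unadjusted p under 0.05. All 38 had a negative difference, of -0.47 to -0.17, and 36 of them had a p under 0.05, set against 3.63% of all genes in that direction. In the shortest quintile of transcript length among genes with a mean of at least 50 counts, 13.5% were lower at that p. That quintile held 29 of the 38. The median of the list was -0.29, from a median null response of -0.38 and a median WT response of -0.10, where the median of all genes tested was 0.00. Their summed level had a median of 15916 CPM in null treated, 20594 CPM in null untreated, 17090 CPM in WT treated and 18485 CPM in WT untreated slices. Null untreated slices were thus the highest group, and their lowest library (18240 CPM) was above the highest null treated library (16059 CPM). Rps16 (chr7:28350652-28353155), of the small subunit, had 309, 365, 355 and 348 CPM in null treated and 420, 461, 522 and 519 CPM in null untreated slices. In WT it had 381, 380, 390 and 397 CPM in treated and 376, 433, 429 and 444 CPM in untreated slices. The null groups of Rps16 were apart and its WT groups overlapped. Its difference was -0.36, and those of Rpl36, Rplp2 and Rpl12 were -0.38, -0.40 and -0.31. Ribosomal protein genes have many processed copies, and how reads of such copies were assigned is not stated.

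The transcripts of ribosomal protein genes are known to begin with a run of C and T bases, through which growth signals set their translation. RefSeq windows around the annotated start (GRCm38.p6) were found for 28 of the 38 genes, with 32 windows in all. A run of at least 5 bases of only C and T, reaching to within 5 bases of the start on the coding strand, was in 16 of these 32 windows and in 31.4% of all 32851 windows. The run is in capitals in stretches of 30 bases centred on the start, shown for 4 of the 16 genes with such a run.
Rplp2 (chr7:141447636-141447665, plus strand): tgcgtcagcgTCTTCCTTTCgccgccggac
Rpl14 (chr9:120571502-120571531, strand as transcribed): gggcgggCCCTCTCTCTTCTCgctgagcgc
Rps24 (chr14:24490663-24490692, strand as transcribed): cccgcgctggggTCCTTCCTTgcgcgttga
Rpl12 (chr2:32961697-32961726, strand as transcribed): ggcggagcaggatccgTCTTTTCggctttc
A match is a description of these letters and was not tested as a site. The list of initiation and elongation factors of translation, 25 genes all tested, had a median of -0.15 (-0.10 in limma). At an unadjusted p under 0.05, 4.42% of genes with a mean of at least 50 counts were lower. In this list there were 2, Eif3e (-0.19) and Eif4ebp1 (-0.27). Eif4ebp1 is not itself such a factor but encodes a repressor that binds the initiation factor eIF4E.

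HIF target genes, all 31 of which were tested, had a negative difference in 30 cases, and 7 had an unadjusted p under 0.05, all lower. Of genes with a mean of at least 50 counts, 4.42% were lower at that p. The median of the list was -0.30, with a median null response of -0.50 and a median WT response of -0.20. The summed level of the list ran between 11655 and 14311 CPM in null treated and between 16261 and 19674 CPM in null untreated slices, without overlap. It ran between 13073 and 15045 CPM in WT treated and between 14287 and 17427 CPM in WT untreated slices, which overlapped. Pgk1 (chrX:106187100-106203699), the phosphoglycerate kinase of glycolysis, had 983, 989, 1225 and 1120 CPM in null treated and 1482, 1506, 1768 and 1772 CPM in null untreated slices. It had 1164, 1063, 1221 and 1365 CPM in WT treated and 1277, 1211, 1466 and 1588 CPM in WT untreated slices. Its difference was -0.39 ± 0.14 (SE), with an interval of -0.68 to -0.10. Higd1a, a mitochondrial protein induced by low oxygen, had -0.36, Ldha, the lactate dehydrogenase, -0.28, and Aldoa, the aldolase of glycolysis, -0.34. The exception was Car9, a carbonic anhydrase, with 0.10.

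The core of the HIF binding site was looked for in the same windows, since the members of this list lay on 1 side. The letters ACGTG, on either strand and including those inside CACGTG, were in 25 of 40 windows of 28 HIF target genes (62.5%) and in 19.6% of all windows. The matches are in capitals in stretches of 29 bases, for members described above.
Ldha (chr7:46845647-46845675): ggtgtcgcagcaCACGTGgagccactctt
Pgk1 (chrX:106186938-106186966): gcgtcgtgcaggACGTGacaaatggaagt
Aldoa (chr7:126799364-126799392): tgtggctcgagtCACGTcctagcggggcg
Higd1a (chr9:121857747-121857775): gccagcactgccgcccaggcctCACGTct
Translation factors had the letters in 60.9% of their windows and extracellular matrix genes in 7.5%. The HIF list was written by hand as targets of HIF, so its share of matches does not bear on the difference. These matches too were not tested as sites.

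Nuclear genes of the respiratory chain had a negative difference in 31 of 33 cases, with 11 lower ones and no higher one at an unadjusted p under 0.05 and a median of -0.17. The shortest quintile of transcript length held 25 of the 33. Of all genes in that quintile 71.0% had a negative difference and 13.5% were lower at that p. Ndufa6 (chr15:82350140-82354322), a subunit of complex I, had 37.2, 42.2, 47.6 and 40.9 CPM in null treated and 54.6, 52.9, 59.8 and 63.1 CPM in null untreated slices. In WT it had 46.7, 46.2, 45.4 and 45.8 CPM in treated and 40.2, 49.6, 52.3 and 48.6 CPM in untreated slices, and the difference was -0.41. Uqcrq, of complex III, had -0.33. The 13 genes encoded by the mitochondrial genome all had a positive difference, with a median of 0.13 and 0 at an unadjusted p under 0.05. Leaving out 1 library brought this median to 0.05 (null untreated library 3), 0.06 (null treated library 1 or WT treated library 4), 0.07 (null treated library 4) or 0.21 (null treated library 3 or null untreated library 2). Leaving out both null libraries numbered 2 brought it to 0.27. Subunits of the same complexes thus had medians of opposite sign by the genome that encodes them. However, 2 of the 33 nuclear genes had a positive difference. The shortest quintile of transcript length also held 12 of the 13 mitochondrial genes. The mitochondrial genes were higher after treatment in both genotypes in the median, by 0.43 in null and 0.27 in WT.

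Extracellular matrix genes had a positive difference in 45 of 46 cases, and 10 had an unadjusted p under 0.05, all higher. At that p 3.26% of all genes were higher, and 3.97% of those with a mean of at least 50 counts. In the longest quintile of transcript length, which held 25 of the 46, it was 10.3%, and 29.9% had a negative difference. The median of the list was 0.28, with a null response of 0.43 and a WT response of 0.06. The members with the smallest p-values form the basement membrane. Hspg2 (chr4:137468769-137570630), which encodes perlecan, had 1659, 2122, 1791 and 1827 CPM in null treated and 1440, 1225, 1374 and 956 CPM in null untreated slices. It had 1317, 1382, 1625 and 1403 CPM in WT treated and 1471, 1368, 1378 and 1334 CPM in WT untreated slices, and the difference was 0.52 ± 0.15 (SE). Col4a1 and Col4a2, the chains of the main collagen IV, had 0.45 and 0.39, and Lamc1, a laminin chain, had 0.34. Col4a1 and Col4a2 share a promoter and overlap at their starts. Fn1, fibronectin, had 0.35, from a null response of 0.15 and a WT response of -0.19.

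Most markers of the stromal and vascular cells had positive estimates, with wider scatter. Of genes with a mean of at least 50 counts, 3.97% were higher at an unadjusted p under 0.05, so the small counts below say little. Fibroblast markers had a median of 0.29 (16 of 20 positive, and at an unadjusted p under 0.05 there were 2 higher, 0 lower), endothelial markers 0.24 (20 of 22, 1 and 0), and smooth muscle and pericyte markers 0.41 (13 of 16, 2 and 0). Pdgfrb, a growth factor receptor of fibroblasts and pericytes, averaged 534 CPM in null treated, 391 CPM in null untreated, 440 CPM in WT treated and 436 CPM in WT untreated slices. Notch3, a receptor of mural cells, had a difference of 0.42, or 0.28 without null untreated library 4. Myocd, a coactivator of smooth muscle genes, had 2.01 at about 1 CPM, or 1.21 without null treated library 1. Nos3, the endothelial nitric oxide synthase, had 0.44, or 0.26 without null treated library 2. Of 12 Schwann cell and glial markers tested, 9 were positive and 3 negative, with a median of 0.55, and 7 had a mean of at least 50 counts. Their summed level had a median of 90.7 CPM in null treated and 87.9 CPM in null untreated slices. In WT it was 96.0 CPM in treated and 92.4 CPM in untreated slices. At an unadjusted p under 0.05 there were 4 glial markers, each higher, among them S100b (1.28), which binds calcium in glia. S100b had 4.12, 6.42, 3.77 and 1.99 CPM in null treated and 1.84, 1.52, 1.15 and 0.769 CPM in null untreated slices, and its WT groups overlapped. Leaving out null treated library 2 brought the median of fibroblast markers to 0.16 and that of glial markers to 0.32, and leaving out WT treated library 1 brought that of endothelial markers to 0.13. The median of endothelial markers was 0.16 without both null libraries numbered 2, that of glial markers 0.34 without WT untreated library 2, and that of smooth muscle and pericyte markers 0.27 in limma. In bulk slices more cells of a type and more RNA per cell cannot be told apart.

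Macrophage and monocyte markers had a negative difference in 27 of 28 cases, and their median of -0.54 was the lowest of the 34 lists. Lyve1, a hyaluronan receptor of resident macrophages and lymphatic vessels, was the exception. It had 5.36, 11.4, 7.67 and 2.82 CPM in null treated, 4.42, 6.02, 5.09 and 2.72 CPM in null untreated, 5.69, 5.97, 5.80 and 6.53 CPM in WT treated and 11.5, 14.5, 8.17 and 8.09 CPM in WT untreated slices. Here the WT groups were apart and the null groups overlapped, and the difference was 1.40 ± 0.49 (SE), or 0.93 in limma. No marker of the list was lower at an unadjusted p under 0.05. The summed level of the list was 6276 to 17023 CPM in null treated, 13098 to 22322 CPM in null untreated, 15352 to 17603 CPM in WT treated and 15370 to 20305 CPM in WT untreated slices. The lowest value was that of null treated library 2, and without it the median of the list was -0.29.

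Lysosomal and lipid-handling genes of macrophages had a negative difference in 24 of 24 cases, with a median of -0.31, or -0.16 without null treated library 2. At an unadjusted p under 0.05 there were 3 lower, where 4.42% of genes with a mean of at least 50 counts were lower. Ctsk, the collagen-degrading cathepsin K, had 186, 147, 189 and 259 CPM in null treated and 178, 174, 161 and 201 CPM in null untreated slices, against 219, 267, 224 and 199 CPM in WT treated and 116, 104, 144 and 150 CPM in WT untreated slices. As with Lyve1 the WT groups were the ones apart, and the difference was -0.69 ± 0.22 (SE). Npc2, a cholesterol carrier of the lysosome, had -0.44. Class I and II histocompatibility genes had 18 of 21 negative and a median of -0.46. Beside the same share of 4.42%, 6 of them were lower at an unadjusted p under 0.05. H2-K1, a class I heavy chain, averaged 307 CPM in null treated, 418 CPM in null untreated, 380 CPM in WT treated and 379 CPM in WT untreated slices. H2-Eb1, a class II chain, had -3.05, but WT treated library 4 held 7.20 CPM where the other WT treated libraries held 0.659 to 0.993 CPM, and leaving out 1 library at a time gave values up to -1.47. These families hold close paralogs, whose reads may be split between them.

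Genes of heart muscle had positive estimates with little depth. Of 32 sarcomere and contraction genes only 10 had a mean of at least 50 counts. The list had 27 positive differences and 2 higher at an unadjusted p under 0.05, where 3.26% of all genes tested were higher. Its median was 1.07, with medians of 1.79 in the null and 0.66 in the WT response. Leaving out null treated library 2 gave a median of 0.46, and limma gave 0.25. Ldb3, which encodes a Z-disc protein, had 4.40, 5.23, 3.77 and 2.75 CPM in null treated and 1.55, 2.36, 2.44 and 1.64 CPM in null untreated slices. It had 2.57, 2.33, 2.004 and 2.86 CPM in WT treated and 2.57, 4.15, 2.10 and 1.69 CPM in WT untreated slices, and its difference was 1.11 ± 0.38 (SE). Tnnt2, the cardiac troponin T, reached 32.1 CPM in null treated, 4.78 CPM in null untreated, 14.1 CPM in WT treated and 11.98 CPM in WT untreated slices. Heart muscle transcripts thus differed in level between libraries, and their part in the differences of other genes was not tested.

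Calcium handling genes, which fibroblasts and mural cells also use, had 21 of 25 positive. At an unadjusted p under 0.05 there were 5 higher and 1 lower. Among genes with a mean of at least 50 counts, 3.97% were higher and 4.42% lower at that p. In the longest quintile of transcript length, which held 10 of the 25, 10.3% were higher. The median of the list was 0.26. This median was 0.45 without null untreated library 2, 0.40 without WT treated library 4, 0.17 without null untreated library 4, and 0.08 over genes with at least 10 counts in every library. Itpr1, an inositol trisphosphate receptor, had 0.44, Jph2, which joins the sarcoplasmic reticulum to the plasma membrane, 0.51, and Atp2a2, the calcium pump of the reticulum, 0.20 with an interval of 0.01 to 0.38. Cardiac transcription factors had 16 of 19 positive and a median of 0.27, which was 0.16 without WT untreated library 1, 0.17 without WT untreated library 2 or in limma, and 0.42 without WT untreated library 4. Zfpm2, a cofactor of GATA factors, had 0.38. Nkx2-5 could not be assessed: it had 0 to 0.581 CPM in null treated, 0 to 0.308 CPM in null untreated, 0 to 0.337 CPM in WT treated and 0 to 0.263 CPM in WT untreated slices, and the interval of its difference ran from -3.76 to 4.25. The genes that flank it on chr17 had estimates near 0, but the interval of Kifc5b was wide and reached beyond -0.58. Bnip1 had a difference of -0.01 (-0.32 to 0.30) and Kifc5b of -0.08 (-0.73 to 0.58).

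**Figure D3:**
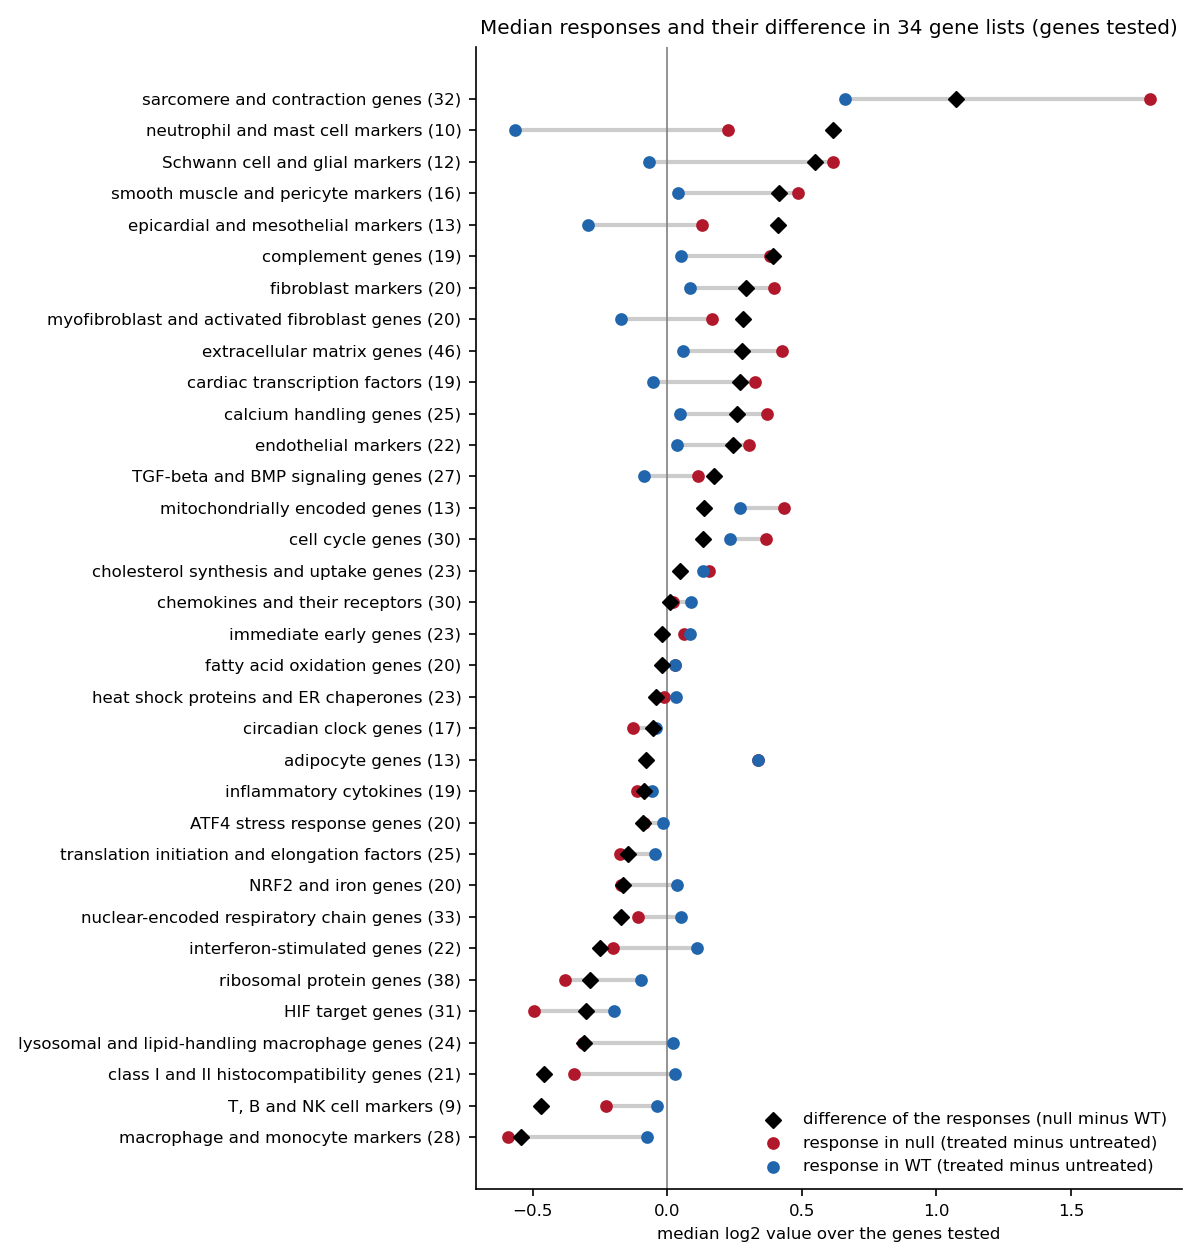
Median over the genes tested of each of 34 gene lists (their number in brackets) for the difference of the responses (diamonds), the null response (red) and the WT response (blue), on the log2 scale. Lists run from sarcomere and contraction genes (1.07) down to macrophage and monocyte markers (-0.54), and the WT median lies nearer to 0 than the null median in most lists.

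The difference followed the length of the transcript. For 12700 genes with a mean of at least 50 counts and a length, taken from the longest annotated transcript, the median difference by quintiles of the length was -0.12, -0.04, 0.00, 0.03 and 0.09, from the shortest to the longest. Of genes in the shortest quintile (57 to 1908 bases) 13.5% had a lower response and 1.06% a higher one at an unadjusted p under 0.05. Of genes in the longest quintile (5304 bases or more) 0.591% were lower and 10.3% higher. At any p, the difference was negative for 71.0% of the shortest and 29.9% of the longest quintile. The lower genes had a median length of 1519 bases and the higher genes of 5433 bases, where all genes had 3399.5 bases. Across these genes, which share the 16 libraries, Spearman's rho with length was 0.325 for the difference, 0.256 for the null response and -0.100 for the WT response, and with GC content it was -0.025 for the difference.

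**Figure D4:**
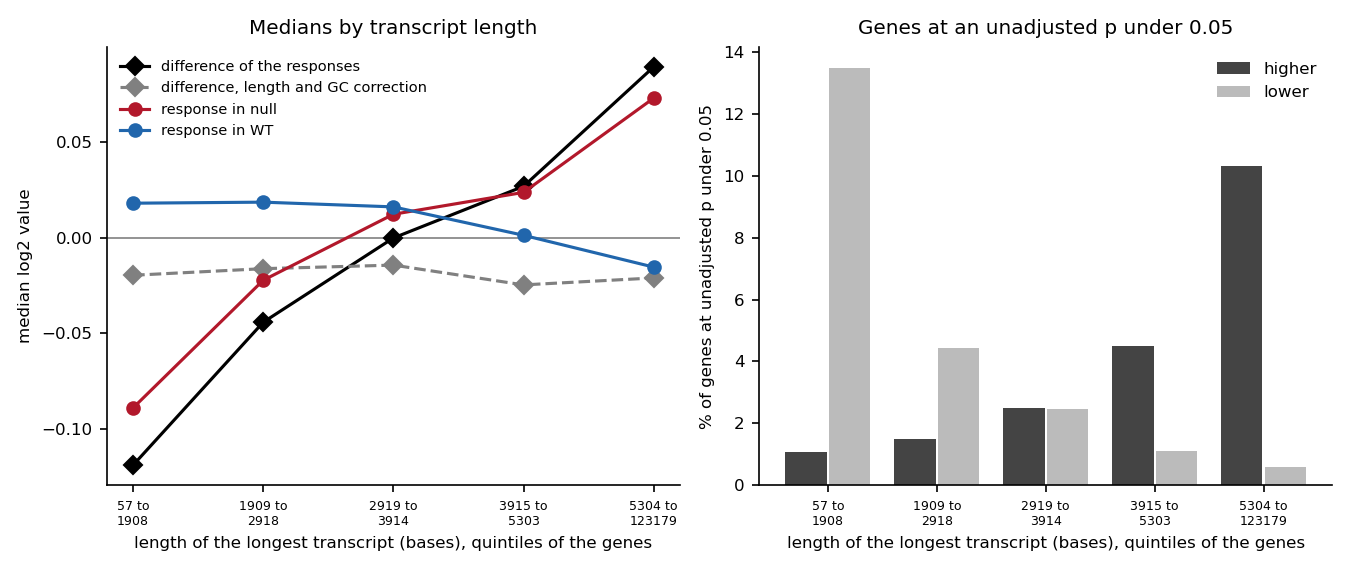
Left, median log2 value by quintiles of transcript length for the difference of the responses (black), the null response (red), the WT response (blue) and the difference after a correction for length and GC content (grey). Right, share of genes of each quintile at an unadjusted p under 0.05. The shares run in opposite directions, with 13.5% lower in the shortest and 10.3% higher in the longest quintile.

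The same trend was read in each library as the median of the longest quintile minus that of the shortest, after subtracting each gene's mean log2 CPM. Null treated libraries had 0.098, 0.138, 0.075 and 0.034, and null untreated libraries 0.012, -0.079, -0.067 and -0.198. WT treated libraries had -0.014, -0.074, -0.010 and 0.027, and WT untreated libraries 0.078, -0.012, -0.013 and -0.012. The null groups did not overlap and the WT groups did. The genes of several lists differ in length in the same way, since 29 of 38 ribosomal protein genes and 25 of 33 respiratory chain genes were in the shortest quintile and 25 of 46 extracellular matrix genes in the longest. The part of transcript length in the differences of these lists was measured only by the correction described next.

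**Figure D5:**
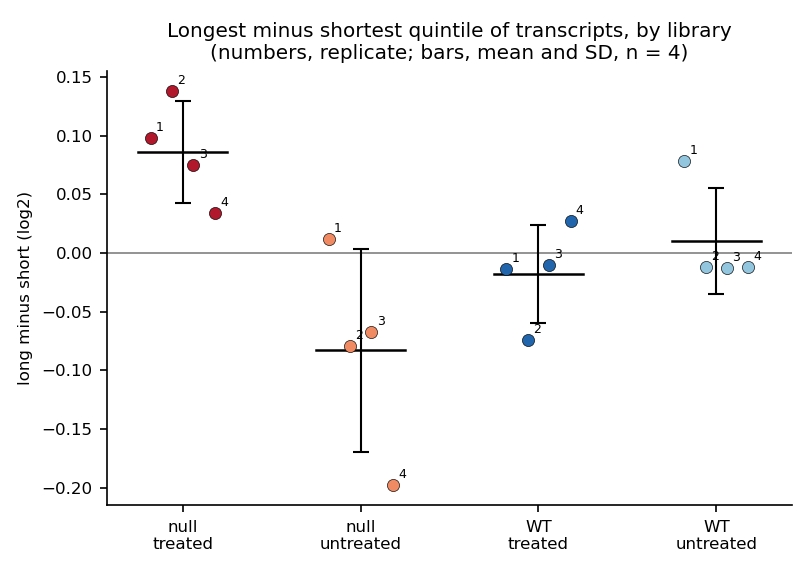
Median log2 deviation of the longest minus the shortest quintile of transcripts in each library (dots, with replicate numbers), with each group's mean and SD (n = 4). The 4 null treated libraries lie between 0.034 and 0.138, above the 4 null untreated libraries.

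With the trends over length and GC content of each library removed, a correction chosen once the data had been seen, no call was made (0 genes), and an unadjusted p under 0.05 was reached by 637 genes with a higher response and 742 with a lower one. The median of ribosomal protein genes was then -0.21 with 23 lower, of respiratory chain genes -0.07 with 4 lower, and of extracellular matrix genes 0.20 with 5 higher. HIF target genes had -0.29 with 10 lower, macrophage and monocyte markers -0.49, and histocompatibility genes -0.38 with 4 lower. Fibroblast markers had 0.28 with 2 higher, smooth muscle and pericyte markers 0.28 with 2 higher, and endothelial markers 0.21 with 0 higher. The median of translation factors was -0.08 with 2 lower, and that of calcium handling genes, 10 of 25 of which were in the longest quintile, was 0.16 with 1 higher and 1 lower. Mitochondrially encoded genes moved the other way, to 0.27 with 4 higher. Sh3bp5 had 0.43, Tmem60 -0.52 and C7 2.09 under the correction, while Rps16 had -0.25, Rpl36 -0.21, Atp5k -0.31, Hspg2 0.31, Lamc1 0.22, Fn1 0.21, Itpr1 0.28 and Atp2a2 0.11.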

How the data were processed

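RNA was sequenced from 16 libraries of heart slices in 4 groups of 4. Paired reads were mapped to mm10 by the authors with STAR and counted per Ensembl gene with GenomicAlignments, and the deposited values are raw counts. The methods name a Ribo-Minus and ScriptSeq preparation and the labels an mRNA kit, and the strand setting is not given in the sources used here. Gene positions and lengths come from GENCODE M21 (GRCm38), which held 55227 of the 55487 identifiers.

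Genes whose counts added up to 10 or more (24971) were normalized by TMM and fitted in edgeR 4.0.16 (R 4.3.3) with a mean for each of the 4 groups, which leaves 12 degrees of freedom, and the difference was tested by robust quasi-likelihood. Calls needed an adjusted p under 0.05 and a log2 difference over 0.58 in size. Levels are CPM after TMM. The 34 gene lists were written by hand, and the members and lists were chosen with earlier results of these data known.

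Genes named are the 10 with the smallest p and the 6 with the largest estimate at an unadjusted p under 0.05 in each direction, all at a mean of at least 50 counts and without clones, predicted genes and pseudogenes, up to 4 members of each list described, and genes the study names; genes of the fit with replicate blocks were not described, and Car9 and the cell type markers of the opening, Tnnt2 included, are named outside this rule, after their values were seen. Some genes that meet the rule are not reported here. Alternatives were DESeq2 1.42.0, limma 3.58.1, other size factors and filters, a replicate block, each library left out in turn, and, added after the data were seen, a length and GC correction and the removal of 2 libraries together. In simulated data edgeR recovered 76 of 100 genes with a 2-fold and 94 of 100 with a 4-fold difference of the responses, with 3 false calls among 24039 genes. The changed genes were drawn only from those with a mean of at least 50 counts, so recovery at lower counts was not measured. The simulated libraries were independent, without shared mice. All pairs of libraries differed by more than sampling noise.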

Additional observations from a re-analysis of the deposited data

Results flagged for a closer look

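In 280 groups of 4 libraries (the genes named outside the lists, and each list), 8 had 1 library far from the others by Dixon's ratio of the gap to the range, above 0.829; about 1 in 20 groups would pass by chance. Null untreated library 2 was the highest of its group for Ccl21a (3.37 CPM, next 0.205, ratio 0.966), for the mean log2 CPM of myofibroblast genes (7.83, next 7.20, ratio 0.888) and for that of TGF-beta and BMP signaling genes (5.97, next 5.61, ratio 0.926). For the last list WT untreated library 1 was also the highest of its group (5.77, next 5.65, ratio 0.895). Nkx2-5 was highest in WT treated library 4 (0.337 CPM, next 0.0418, ratio 0.876). T, B and NK cell markers were lowest in WT treated library 1 (4.78, next 5.11, ratio 0.879), interferon-stimulated genes were lowest in null treated library 3 (2.74, next 2.89, ratio 0.892), and heat shock genes were highest in WT untreated library 2 (7.68, next 7.56, ratio 0.925).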

How the results depend on the processing

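The count of called genes stayed at 0 with DESeq2, limma, DESeq2's size factors, a filter by expression, no filter, no fold threshold, the length and GC correction, without both libraries numbered 2 in null slices, and without each library in turn. The exception was a replicate block of 8 genotype and number blocks, which called 52 genes, with 2776 at an unadjusted p under 0.05 (1266 higher, 1510 lower); 26 of the 52 had an unadjusted p under 0.05 without the block. A replicate block of 4 numbers called 0. Without both null libraries numbered 2, an unadjusted p under 0.05 was reached by 1199 higher and 1262 lower genes. The replicate numbers were not taken to pair the libraries, since only 6 of 8 same-numbered pairs had a correlation of deviations over 0.1 (null 0.148, 0.591, 0.259 and 0.399, WT -0.108, -0.0836, 0.165 and 0.319) and null library 3 and WT libraries 1 and 2 correlated best with another number. Without 1 library at a time, genes at an unadjusted p under 0.05 numbered 1092 (without null untreated library 4) to 2763 (without null untreated library 2), with 495 to 1524 higher and 597 to 1239 lower. The longest minus the shortest quintile of transcripts kept 0.168 to 0.242 without 1 library at a time and was -0.0014 under the correction, which removes it by construction. The sign turned for genes with estimates near 0 or few counts. Without 1 library at a time, the ranges were -0.0681 to 0.56 for Wt1, -4.06 to 0.0029 for Ms4a1, -0.56 to 2.84 for Cma1, -1.54 to 2.58 for Nkx2-5, -0.12 to 0.0799 for Bnip1 and -0.22 to 0.0567 for Kifc5b. Limma gave -0.0768 for Cma1, -0.48 for Nkx2-5 and 0.0655 for Bnip1, the block of 4 numbers -0.13 for Nkx2-5, and leaving out both libraries numbered 2 gave -1.46 for Nkx2-5 and 0.03 for Bnip1. The causes were not tested.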

Other observations

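Several programs of stress and metabolism had a median difference close to that of all genes (0.00). Heat shock proteins and ER chaperones had -0.04, with 0 of 23 at an unadjusted p under 0.05, fatty acid oxidation genes had -0.02 with 0 of 20, and cholesterol synthesis and uptake genes had 0.05 with 0 of 23. Without 1 library at a time these medians lay between -0.06 and 0.02, between -0.05 and 0.02, and between -0.02 and 0.10, in that order. Cell cycle genes had 24 of 30 positive and a median of 0.13, with 0 at an unadjusted p under 0.05. That median was 0.0046, 0.24, 0.24 and 0.01 without null treated library 1, 2, 3 and 4, 0.22 and 0.01 without WT treated library 2 and 4, and 0.04 and 0.20 without WT untreated library 2 and 4. Immediate early genes had -0.02 (-0.08 to 0.0063 without 1 library at a time), and Nr4a3, an orphan nuclear receptor induced by many stimuli, was the 1 member at an unadjusted p under 0.05. It had 4.53, 8.49, 3.97 and 4.46 CPM in null treated and 1.88, 3.32, 2.54 and 2.72 CPM in null untreated slices, against 4.47, 2.81, 4.01 and 4.59 CPM in WT treated and 3.52, 5.62, 3.08 and 2.02 CPM in WT untreated slices. Its difference was 0.88 (adjusted p = 0.715, edgeR), or 0.56 without null treated library 2 and 0.57 without WT untreated library 2. NRF2 and iron genes had a median of -0.17 (-0.08 without null treated library 2, -0.06 without both null libraries numbered 2, -0.11 without WT untreated library 1, -0.25 without null untreated library 1 or WT untreated library 4, and -0.07 in limma), with 18 of 20 negative and 1 lower at an unadjusted p under 0.05, Slc11a2 (-0.26), an iron transporter.

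Adipocyte genes had median responses of 0.34 in null and 0.34 in WT slices and a difference of -0.08, which lay between -0.20 (without null untreated library 4) and 0.07 (without WT untreated library 3) when 1 library at a time was left out. Ackr4, a scavenging receptor for chemokines, had 2.24, 1.12, 1.15 and 1.31 CPM in null treated and 0.518, 0.281, 0.299 and 0.205 CPM in null untreated slices. It had 1.44, 2.50, 0.418 and 0.674 CPM in WT treated and 1.57, 1.47, 0.841 and 0.433 CPM in WT untreated slices, so that the null untreated libraries were the lowest group and the difference was 1.90 (adjusted p = 0.715, edgeR). Tnfaip3, a brake on NF-kappaB signaling, had 22.3, 19.6, 24.5 and 23.04 CPM in null treated and 30.3, 31.0, 33.0 and 29.6 CPM in null untreated slices. In WT the groups of Tnfaip3 overlapped, at 25.2 to 27.5 CPM in treated and 26.1 to 34.7 CPM in untreated slices, and the difference was -0.30.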
